A study of Drosophila melanogaster with 7 samples.

Results

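Cytoplasmic ribosomal proteins form the large and small subunits of the ribosome together with ribosomal RNA, and the genes that encode them are among the most strongly transcribed of any cell. In Drosophila, losing 1 copy of many of these genes gives the Minute phenotype of slow growth and short bristles. Several of them have a second copy, and some of these second copies, RpS5b and RpL22-like among them, are known for expression in the germ line. The ribosome itself is assembled in the nucleolus, where a separate set of assembly factors and RNA polymerase I act.

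The genes described here are those whose symbol on the array begins with RpL or RpS (RpLP, the stalk proteins, included). Clones that the platform table pairs with a single such symbol numbered 47 of the 10227 cDNA features tested, and they represent 35 of 7591 genes. Of the 35 genes, 22 belong by name to the large subunit and 13 to the small subunit, 24 had 1 clone, 10 had 2 clones and RpL28 had 3. All 35 were found by gene ID in the RefSeq gene table, which holds 92 genes named in this way, so 57 others were not analysed here. Where a gene had several clones, they were averaged on each array.

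Total RNA from lola mutant embryos, in which a lolaORE76 sca-GAL4 chromosome met a lolaORE76 UAS-tau-eGFP chromosome in a w1118 background, was compared with RNA from control embryos, which were w1118 with sca-GAL4 over UAS-tau-eGFP, on 7 arrays of 2 colours, 1 array for each of 7 pairs collected at the same time. The mutant embryos were homozygous for a null allele of lola, which encodes a transcription factor needed for axon growth, and embryos of both genotypes carried the same neural GAL4 driver and the same reporter, were picked by green fluorescence in the nervous system, and were taken 10 to 12 hours after egg laying. About 300 whole embryos gave each RNA sample. The mutant chromosomes all carried the same lola allele, and the study could not exclude effects of other loci on them. The mutant RNA was in Cy5 on arrays 1, 3 and 6 and in Cy3 on arrays 2, 4, 5 and 7. Positive log2 ratios below stand for more RNA in the mutant. The deposited table does not state its direction, and this one is likely because 14 of 14 clones that could be compared had the opposite sign, as deposited, to the change the study describes. An array gives no level per embryo, so fewer cells of a type and less RNA per cell cannot be told apart. A long cDNA spot can also bind RNA of a near-identical gene copy, which bears on RpS5b and on every other gene here that has a second copy.

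Over all features, pairs of arrays correlated from -0.18 to 0.83. In the fit of gene averages 440 of 7591 genes passed, of which 253 were higher and 187 lower in the mutant.

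Ribosomal protein genes were close to level between lola mutant and control embryos, with 1 gene higher and 1 lower. RpS5b rose by 0.77 on the log2 scale, which is 1.70-fold, and RpLP0-like was at -0.29, a ratio of 0.816. RpLP0-like is counted here by its symbol, although its synonym is that of an assembly factor. The other 33 genes did not pass, and 26 of them had means within 0.1 of 0. The share of ribosomal protein genes that passed, 5.71%, was near the background, since 5.8% of all genes passed (limma, adjusted over all genes). In the upward direction it was 1 gene of 35 against a background of 3.33%, and in the downward direction 1 of 35 against 2.46%. By feature, 1 clone of 47 rose and 1 fell, against 6.11% of all features passing, 3.59% upward and 2.52% downward. An unadjusted p under 0.05 was reached by 6 of 35 genes, against 19.6% of all genes.

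**Figure D1:**
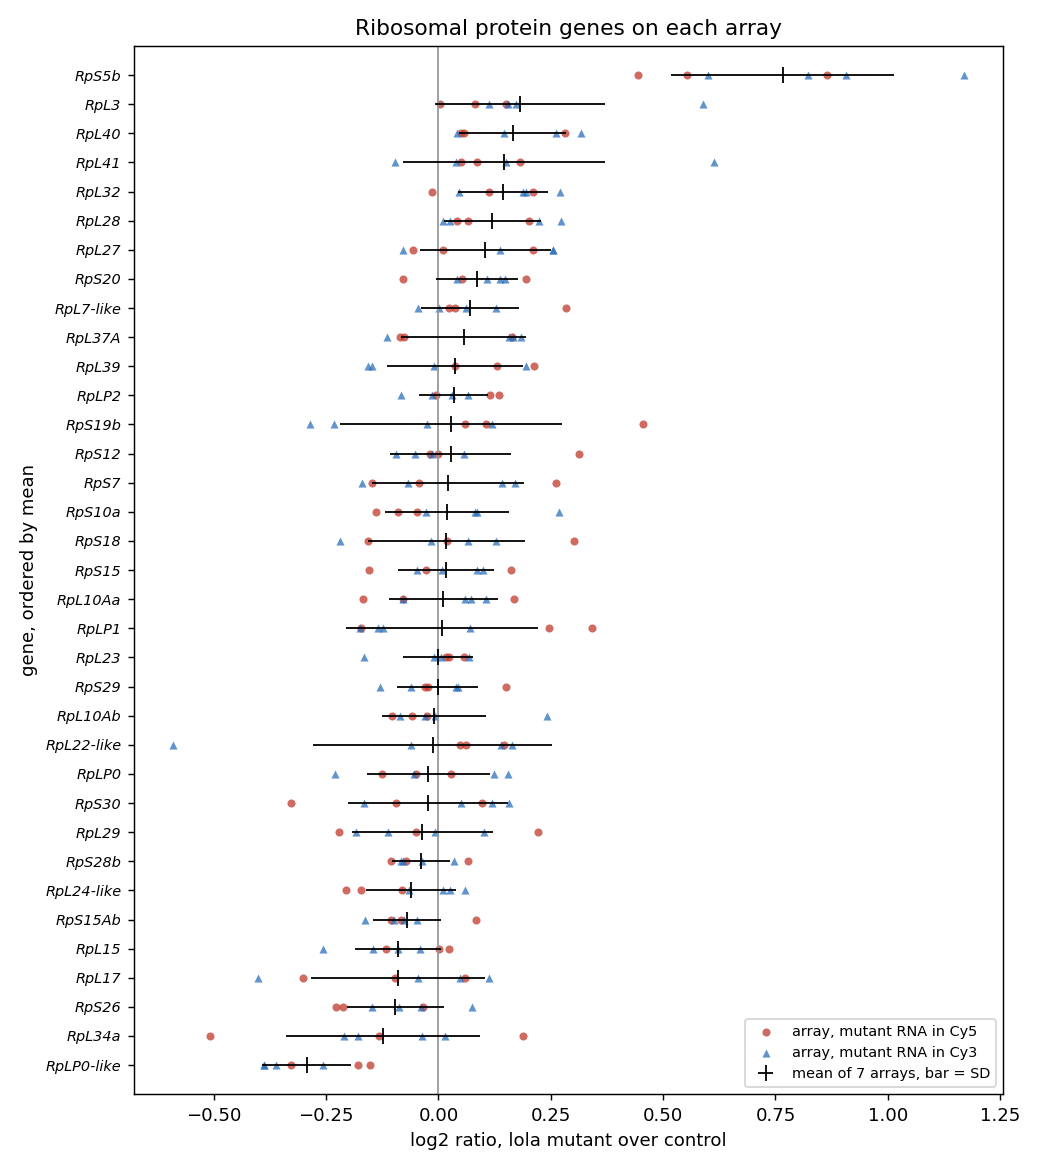
Log2 ratio of lola mutant over control on each of 7 arrays (x axis) for the 35 ribosomal protein genes (y axis, ordered by mean), with circles for arrays with mutant RNA in Cy5, triangles for those with mutant RNA in Cy3, ticks for means and bars for SD. RpS5b stands above 0.44 on every array and RpLP0-like is at -0.15 or lower on every array, while most other genes scatter on both sides of 0.

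RpS5b encodes a protein of the small subunit and is known for its expression in the ovary. Its single clone, RE17836, had log2 ratios of 0.55, 0.91, 0.44, 1.17, 0.82, 0.87 and 0.60 on arrays 1 to 7. It was above 0 on all 7 arrays and higher than every other ribosomal protein gene on each of them, although RpL3 came close on array 7 with 0.59. The mean was 0.77 ± 0.25 (SD, n = 7; limma, adjusted p = 0.00169 over all genes), the 32nd highest of 7591 genes. The next highest ribosomal protein gene lay 0.58 lower. The arrays with mutant RNA in Cy5 had a mean of 0.62 and those in Cy3 a mean of 0.87, and a dye term for this gene did not pass (limma, adjusted p = 0.324). The call held when any single array was left out.

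Because RpS5b is known from the germ line, the genes of a germ cell list are given beside it. Of 11 measured germ cell genes, 0 passed in limma and 3 had an unadjusted p under 0.05, against 5.8% and 19.6% of all genes. The median of their means was 0.02 and 9 of 11 means lay above 0, against 44.9% of all genes. The germ cell gene vas, which encodes an RNA helicase, had log2 ratios of 0.34, 0.26, 0.11, 0.50, 0.05, 1.33 and 0.62 on arrays 1 to 7, with a mean of 0.46 ± 0.43 (SD, n = 7; limma, adjusted p = 0.0858). It was above 0 on every array, and its highest value was on array 6, where RpS5b was at 0.87. Its lowest value, 0.05, was on array 5, where RpS5b was at 0.82. RpS5b itself was highest on array 4, at 1.17, where vas was at 0.50. The gap junction gene zpg was at 0.22 ± 0.21 and ovo at 0.14 ± 0.11, while bam was at -0.14 ± 0.32 and osk at 0.02 ± 0.51. The means of bam and osk average over opposite values by dye, 0.16 with mutant RNA in Cy5 and -0.36 in Cy3 for bam, and -0.43 in Cy5 and 0.36 in Cy3 for osk. A dye term passed for both and for Pxt (limma, adjusted p = 0.0306, 0.0321 and 0.037), and for none of the other 8 germ cell genes. Of those 8, aub and bgcn lay near the threshold (limma, adjusted p = 0.0521 and 0.0662). Over all genes a dye term passed for 12.9%. The median over the list ran from 0.02 to 0.16 across arrays. The genes named from this list were picked with their values known. The part of germ cells in the value of RpS5b was not tested.

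RpLP0-like carries the name of the stalk protein P0 but is known under the synonym MRT4 after a yeast factor that takes the place of P0 during assembly of the large subunit. Its log2 ratios were -0.18, -0.39, -0.33, -0.36, -0.39, -0.15 and -0.26 on arrays 1 to 7. All 7 lay below 0, and on arrays 1, 2, 3, 5 and 7 it was the lowest of the 35 genes. The mean was -0.29 ± 0.10 (SD, n = 7; limma, adjusted p = 0.013). The call was lost without array 2, 4 or 5, with adjusted p-values of 0.057, 0.0501 and 0.0517, and with a minimum fold of 1.1. In the fit of features, where the gene has the same single clone, the call was lost without array 2 but held without array 4 or 5.

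**Figure D2:**
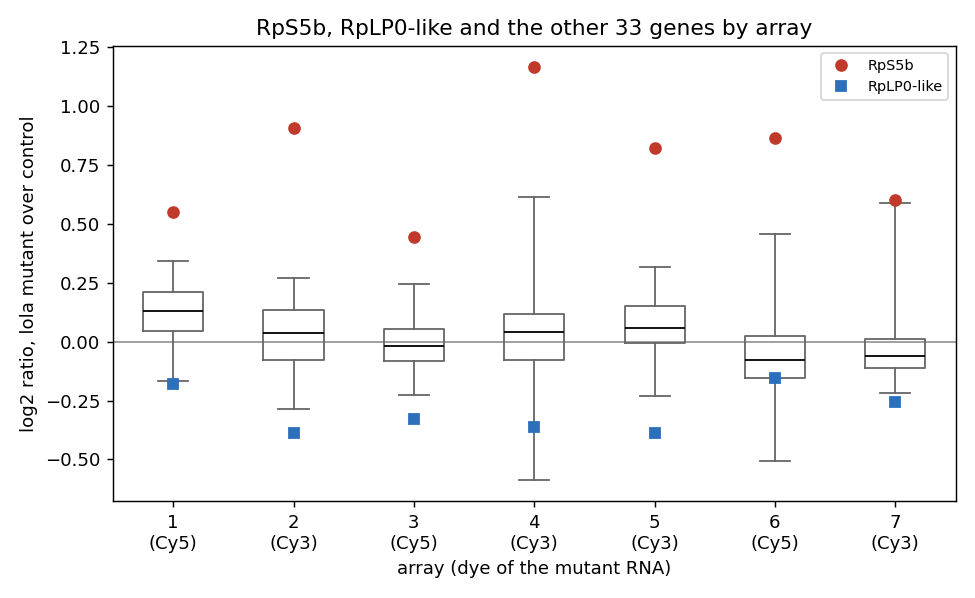
Log2 ratio of lola mutant over control (y axis) on each array (x axis, with the dye of the mutant RNA) for RpS5b (circles) and RpLP0-like (squares), beside boxes for the other 33 ribosomal protein genes that span the quartiles, with a line at the median and whiskers to the lowest and highest gene. RpS5b is above all whiskers, RpLP0-like is below them on arrays 1, 2, 3, 5 and 7, and the medians run from -0.08 on array 6 to 0.13 on array 1.

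The highest means after that of RpS5b belonged to large subunit genes and were small. RpL3, whose protein lies near the catalytic centre of the ribosome, had log2 ratios of 0.08, 0.16, 0.15, 0.11, 0.17, 0.00 and 0.59 on arrays 1 to 7. Array 7 stood apart from the rest, and the mean of 0.18 ± 0.19 did not pass (limma, adjusted p = 0.187). Without array 7 it was 0.11. RpL40, a protein made as a fusion with ubiquitin, was at 0.28, 0.26, 0.05, 0.15, 0.32, 0.06 and 0.04. It was above 0 on all 7 arrays with a mean of 0.16 ± 0.12 (adjusted p = 0.124), the closest to the threshold among the 33. RpL41, which encodes a very short peptide, had a mean of 0.15 ± 0.22 (adjusted p = 0.356) with 0.61 on array 4 and no other array above 0.18, and 0.07 without array 4. RpL28 was also above 0 on all 7 arrays, at 0.12 ± 0.11 (adjusted p = 0.254). With RpS5b, that made 4 genes above 0 on every array and 1, RpLP0-like, below 0 on every array, against 5.02% and 4.58% of all genes.

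RpL32, also called rp49, is widely used as a reference gene in flies and was the reference in the quantitative RT-PCR of the study. Its log2 ratios on the arrays were 0.21, 0.19, 0.11, 0.27, 0.19, -0.01 and 0.05. It was above 0 on 6 of 7 arrays, with a mean of 0.14 ± 0.10 (SD, n = 7; limma, adjusted p = 0.152) and a 95% interval from 0.03 to 0.26, without adjustment for the number of genes. Array weights, which let arrays that vary less among themselves count for more, gave 0.17 and a limma adjusted p of 0.022. Arrays 2 and 5 had weights of 2.55 and 2.44 in this fit. Arrays 1, 3 and 6, those with mutant RNA in Cy5, had 0.52, 0.65 and 0.45. The fit therefore rests mostly on arrays with mutant RNA in Cy3. In that fit RpL40, RpL3, RpL28 and RpL27 passed as well, at 0.21, 0.18, 0.17 and 0.17, so 6 of 35 genes rose and RpLP0-like fell. The background of that fit was 21.5% of all genes passing, with 10% of all genes upward and 11.5% downward. By feature, 7 of 47 passed in it, against 20.1% of all features, or 9.64% upward and 10.5% downward. RpL27 and RpL28 are named here after their values were seen.

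The lowest genes after RpLP0-like were RpL34a at -0.12 ± 0.22, RpS26 at -0.10 ± 0.11, RpL17 at -0.09 ± 0.19 and RpL15 at -0.09 ± 0.10, with adjusted p-values from 0.368 to 0.551. RpL34a ran from -0.51 on array 6 to 0.19 on array 1, and its mean was -0.06 without array 6. RpS26, a small subunit protein, was below 0 on 6 of 7 arrays, at -0.03, -0.15, -0.23, -0.09, -0.04, -0.21 and 0.07. RpL17 had -0.40 on array 4 and -0.30 on array 6 but 0.11 on array 7, and its mean was -0.04 without array 4. RpL15, a large subunit gene in the heterochromatin of chromosome 3, ran from -0.26 to 0.02. None of these 4 differed from 0 beyond the spread between arrays.

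The proteins of the stalk, on which translation factors dock, did not move together. RpLP0, the base of the stalk, was at 0.03, -0.06, -0.05, -0.23, 0.12, -0.13 and 0.15, with a mean of -0.02 ± 0.14. RpLP1 had 0.34 and 0.25 on arrays 1 and 3 and values from -0.17 to 0.07 on the other 5, with a mean of 0.01 ± 0.21. RpLP2 averaged 0.03 ± 0.08. None of the 3 passed, and the sign of each mean changed in some alternative.

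Pairs of related genes could be compared in 2 cases, within each array. RpLP0-like lay below RpLP0 on all 7 arrays, by -0.27 ± 0.17 on average (SD, n = 7; exact two-sided sign-flip permutation test, p = 0.0156, the smallest that 7 arrays allow, and 0.0312 adjusted over the 2 pairs). The difference on single arrays ran from -0.51 to -0.03. RpL10Aa and RpL10Ab, 2 copies of a large subunit gene, had means of 0.01 ± 0.12 and -0.01 ± 0.12. RpL10Aa was above RpL10Ab on 4 of 7 arrays, with a difference of 0.02 ± 0.14 that ran from -0.14 to 0.23 (exact permutation p = 0.703, the same adjusted over the 2 pairs). For 9 other genes with a related copy only 1 of the 2 was measured. Among these, the copies known from the germ line other than RpS5b had means near 0: RpL22-like at -0.01 ± 0.27, RpS19b at 0.03 ± 0.25 and RpS10a at 0.02 ± 0.14. RpL22-like ran from -0.59 to 0.16 and RpS19b from -0.29 to 0.46, and with RpS5b they had the largest SDs over arrays of the 35 genes. The remaining 5 such genes, RpL7-like at 0.07 and RpL24-like at -0.06, which resemble assembly factors of yeast, with RpS15Ab at -0.07, RpS28b at -0.04 and RpL34a at -0.12, did not pass either.

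As a group the genes had means nearer to 0 and smaller spreads than the typical gene on the array. Over all 35 genes the median of the means was 0.02, against -0.02 over all genes, and the median absolute mean was 0.0391 against 0.0798. The median SD over arrays was 0.135, against 0.189 over all genes. For the 33 genes that did not pass, means ran from -0.12 to 0.18 and 95% intervals reached no farther than -0.30 and 0.34, without adjustment for the number of genes. Changes in array ratio above 1.26-fold upward or 1.23-fold downward therefore lay outside the interval of each of the 33. The study holds it possible that arrays compress ratios, although its quantitative RT-PCR results were largely similar. Compression was not tested here for these genes. Means were above 0 for 19 of the 33 and below 0 for 14. Among all 35 ribosomal protein genes 57.1% of means lay above 0, against 44.9% over all genes.

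The number of ribosomal protein genes above 0 differed between arrays. It was 29, 19, 16, 19, 25, 12 and 13 of 35 on arrays 1 to 7, while 47.3% to 51.3% of all genes were above 0 on each array. Arrays 2, 3 and 4 were split almost evenly, arrays 1 and 5 leaned upward and arrays 6 and 7 downward. The mean of the 33 ran from -0.06 on array 6 to 0.12 on array 1, with an average of 0.02 ± 0.06 (SD over 7 arrays). On arrays 1, 6 and 7 it was 0.12, -0.06 and -0.03, against 0.01, -0.06 and -0.03 over all genes. By the mean, the 33 thus lay with all genes on arrays 6 and 7. By the median, they were at -0.08 and -0.06 there, against -0.01 and -0.01 over all genes. Across the 7 arrays, the correlation of a gene with the mean of the other 32 had a median of 0.675, and it exceeded 0.5 for 17 of 33 genes and was below 0 for 7. These points share the array and its normalisation, so the correlation is a description. The correlation was -0.14 for RpS5b and -0.14 for RpLP0-like. The order of the arrays was not that of the dyes: the mean of the 33 was 0.02 with mutant RNA in Cy5 and 0.02 in Cy3. A dye term passed for 0 of 35 genes in limma, against 12.9% of all genes at the same adjusted threshold. At an unadjusted p under 0.05 the count was also 0 of 35. The share of all genes was not determined there, so that count cannot be set against a background.

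Small and large subunit genes differed little. The small subunit averaged 0.06 ± 0.07 and the large subunit 0.02 ± 0.05 (SD over 7 arrays). The difference was 0.04 ± 0.04, and -0.02 without RpS5b, so its sign rested on that gene. Medians over whole chromosomes gave no clear order either. The median was 0.02 for the 15 genes on chromosome 2, which carries lola, 0.02 for the 18 on chromosome 3 and -0.06 for the 2 on the X, against medians of -0.01, -0.02 and -0.02 over all genes of these chromosomes. RpLP0-like lies on chromosome 2, on arm 2R. Its distance from lola was not determined, and an effect of linked loci on its value was not tested.

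Where a gene had several clones, the clones differed by 0.03 to 0.15 in their means, with a median of 0.08. The clones had opposite signs for RpS15, RpS18 and RpS29, all of whose means lay near 0. The 2 clones of RpL41 followed each other closely over the arrays, and both had their highest value on array 4, at 0.52 and 0.71. Those of RpL39 did not: on array 7 clone RE50942 was at 0.69 and clone RH27094_ReAmp at -0.30, and the gene mean of 0.04 ± 0.15 averages over this.

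Genes that act in making ribosomes were compared with the ribosomal protein genes. The latter were taken by symbol and include RpLP0-like, RpL7-like and RpL24-like, which resemble assembly factors of yeast. Of 30 measured genes of a ribosome biogenesis list, 0 rose, 4 fell and 26 did not pass, and 28 of 30 means were below 0. The median was -0.13, against 0.02 for the ribosomal protein genes and -0.02 over all genes, and 13.3% of the list passed against 5.8% of all genes. The genes that fell were Surf6 at -0.32 ± 0.18 (SD, n = 7; limma, adjusted p = 0.0271), eIF6 at -0.28 ± 0.18 (adjusted p = 0.0416), bys at -0.27 ± 0.12 (adjusted p = 0.0224) and NHP2 at -0.26 ± 0.17 (adjusted p = 0.0484). eIF6 keeps new large subunits from joining small ones too early, bys (bystin) acts in assembly of the small subunit, NHP2 is a protein of the particles that modify ribosomal RNA, and Surf6 is a nucleolar protein.

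The array values of these genes show the same direction. On arrays 1 to 7, bys was at -0.36, -0.35, -0.31, -0.39, -0.19, -0.28 and -0.03. It was below 0 on all 7 arrays. Surf6 was at -0.16, -0.46, -0.31, -0.56, -0.40, -0.02 and -0.31, and eIF6 at -0.14, -0.32, -0.45, -0.56, -0.25, -0.18 and -0.06, all below 0 as well. NHP2 was above 0 on array 1 alone, at 0.05. The median of the list was below 0 on all 7 arrays, from -0.26 on array 4 to -0.03 on arrays 6 and 7, and averaged -0.12 with mutant RNA in Cy5 and -0.15 in Cy3. The 2 genes of the list with means above 0 were Aatf at 0.03 and nst at 0.05, and nst, a gene of hexosamine synthesis, does not belong by function in the list that named it. The calls were sensitive to single arrays. Without array 2, 3, 4 or 5, 0 of 30 passed in limma, where 148, 299, 154 and 169 of all 7591 genes passed. At an unadjusted p under 0.05 the list had 12, 10, 10 and 12 of 30. The share of all genes in these fits was not determined, so no excess can be read from these counts. In the limma fit of all 7 arrays, 15 of 30 had an unadjusted p under 0.05, against 19.6% of all genes. Without array 7, 2 of 30 passed, against 327 of all 7591 genes.

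**Figure D3:**
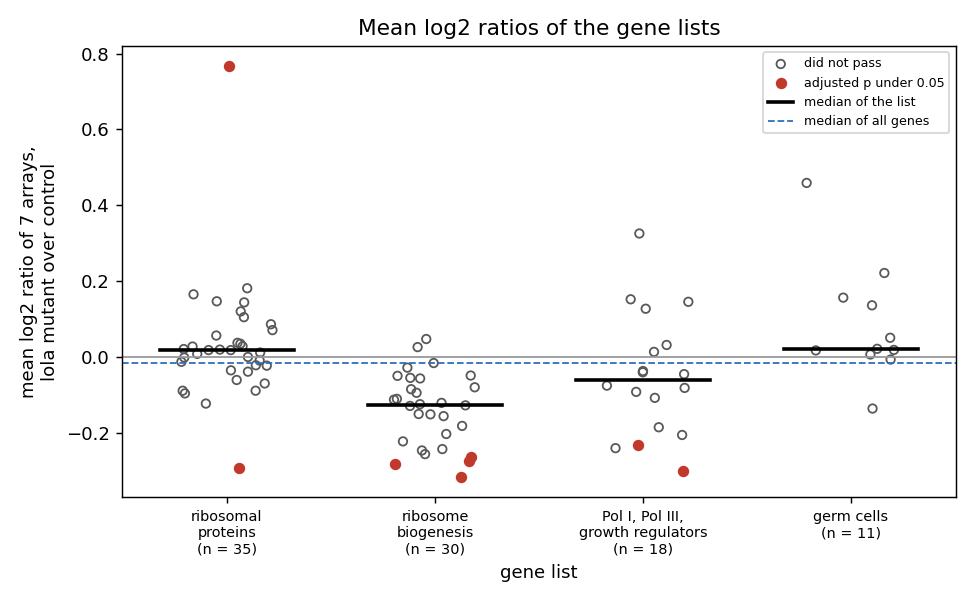
Mean log2 ratio of lola mutant over control over 7 arrays (y axis) for each gene of 4 lists (x axis), with filled points for genes that passed, open points for the rest, bars for list medians and a dashed line for the median of all genes. The ribosomal protein genes centre on 0.02 and the ribosome biogenesis genes on -0.13.

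A list of RNA polymerase I and III subunits and growth regulators held 2 genes that fell and 0 that rose among 18 measured (11.1%), against 5.8% of all genes, 3.33% upward and 2.46% downward. These counts moved with single arrays, as did the count over all genes, which ran from 148 to 538. In the list 1 gene passed, downward, without array 2, 3, 4, 5 or 7, and 1 rose and 1 fell without array 1. With arrays centred on their medians 1 rose and 2 fell. Max, the partner of Myc, was at -0.14, -0.31, -0.29, -0.42, -0.32, -0.37 and -0.26 on arrays 1 to 7. Its mean was -0.30 ± 0.09 (SD, n = 7; limma, adjusted p = 0.00952). Polr1E, a subunit of RNA polymerase I, had a mean of -0.23 ± 0.11 (adjusted p = 0.0339). Both were below 0 on every array. M1BP and Dref, factors that bind promoters of many housekeeping genes in flies, were at -0.24 ± 0.19 and -0.19 ± 0.20 and did not pass (adjusted p = 0.0815 and 0.196). Trf2, which encodes a TBP-related factor, had the list's highest mean, 0.33 ± 0.24, and was above 0 on all 7 arrays, from 0.01 to 0.75 (adjusted p = 0.0551). M1BP, Dref and Trf2 are named after their values were seen. S6k, the kinase that phosphorylates ribosomal protein S6, was at 0.01 ± 0.13. Rack1, a scaffold protein bound to the small subunit, was at 0.17 ± 0.23 (adjusted p = 0.271).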

How the data were processed

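Spot intensities of spotted cDNA arrays (Drosophila Gene Collection) were extracted with GenePix. The authors applied no background correction, normalised by print-tip loess within arrays and by scale between arrays using limma, whose version is not given in the sources used here. The values they deposited are log2 ratios, with a column for each array. All signs were turned to mutant over control, and the table held 0 missing values. Spot intensities were not used, so signal over background is unknown and precision is limited by the number of arrays. After 149 control spots were left out, 10227 features remained, 8598 with 1 gene symbol in the platform table, 517 with several and 1112 with none.

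Features, and gene averages over clones, each went through lmFit and eBayes in limma 3.58.1 (R 4.3.3), the procedure the methods name, giving a moderated test (two-sided) against 0 with Benjamini-Hochberg adjustment over the whole table at 0.05. An adjusted p is from the fit of gene averages unless a clone is named. The code was tested on simulated data with independent noise. The simulation held no correlation between arrays and no dye effect, so it does not measure error rates on these arrays. Paralog differences were tested by exact sign flips in Python 3.11.15. Genes were named if they passed, were among the 5 highest or 5 lowest, belonged to a paralog pair or the stalk, or served as reference (RpL32). In the other lists only genes that passed were to be named. Other genes of those lists, such as vas, zpg, ovo, bam and osk, are named outside this rule, with their values known. Members and lists were chosen with earlier results of these data known. Chromosomes are those of RefSeq (Release 6 plus ISO1 MT). No coordinates are given, since no build was stated for the clones. Alternatives were leaving out each array, centring arrays, a dye term, array weights, keeping control spots, a minimum fold of 1.1, and other summaries over clones. Arrays of 1 dye orientation alone, and leaving out RpS5b, were added after seeing the data.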

Additional observations from a re-analysis of the deposited data

Results flagged for a closer look

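In 6 of 35 ribosomal protein genes, 1 array lay far from the other 6 by Dixon's criterion. For normally distributed values, chance alone meets this criterion in about 1 in 20 groups. The share of all genes on these arrays that meets it was not determined, so no excess in the ribosomal protein genes can be read from this count. RpL10Ab was at 0.24 on array 4, with the others from -0.10 to -0.01. RpL22-like was at -0.59 on array 4, with the others from -0.06 to 0.16. RpL41 was at 0.61 on array 4, with the others from -0.10 to 0.18. RpL3 was at 0.59 on array 7, with the others from 0.00 to 0.17. RpL23 was at -0.16 on array 2, with the others from -0.01 to 0.07. RpS12 was at 0.31 on array 1, with the others from -0.09 to 0.06. Array 4 gave 3 of the 6, in both directions. None of these genes passed in limma without array weights.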

How the results depend on the processing

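RpS5b kept its direction under every alternative, and its call under all but 1: without any single array it ran from 0.70 to 0.82, and on the 3 arrays with mutant RNA in Cy5 alone it was 0.62 (limma, adjusted p = 0.18), a fit in which 0 of 7591 genes passed and 1315 had an unadjusted p under 0.05. The count of ribosomal protein genes that passed, 2, was 1 to 2 with an array left out, 7 with array weights, 1 with a minimum fold of 1.1 and 0 on the Cy5 arrays alone, and the count of their features was 7, 1 and 0 in the last 3 and 1 to 2 with an array left out (1 without array 2 alone). Over all genes, 440 passed, 148 to 538 with an array left out, 661 with a dye term, 1632 with array weights, 111 with the minimum fold, 0 on the Cy5 arrays and 2011 on the Cy3 arrays. With an array left out, 0 to 5 biogenesis genes and 1 to 3 of the polymerase and growth list passed, 1 of them upward without array 1. The small minus large subunit difference moved to -0.017 without RpS5b. RpLP0-like minus RpLP0 ran from -0.31 to -0.23 with an array left out, where 6 arrays allow no adjusted p under 0.0625, and was -0.17 on the Cy5 arrays and -0.35 on the Cy3 arrays, too few for the test to pass. RpL10Aa minus RpL10Ab ran from -0.013 to 0.048 with an array left out. Signs that changed all belonged to means near 0. With an array left out, RpL10Aa ran from -0.015 to 0.041, RpL10Ab from -0.051 to 0.0062, RpLP0 from -0.052 to 0.012 and RpLP1 from -0.048 to 0.038. RpL10Aa was -0.026 on the Cy5 arrays. On the Cy3 arrays RpL10Ab was 0.030, RpLP1 -0.090 and RpLP2 -0.00048, and RpLP1 was -0.060 with array weights. The cause of these changes was not tested.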

Other observations

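Another 10 clones are paired by the platform table with a ribosomal protein gene together with a further gene, and 1 of them passed, against 6.11% of all features, or 3.59% upward. Clone GM27203, paired with RpS12 and CG6163, was above 0 on all 7 arrays with a mean of 0.24 ± 0.12 (SD, n = 7; limma over features, adjusted p = 0.0332), while LD23808, the clone of RpS12 alone, had 0.03 ± 0.13. The clone of RpL32 and eIF3d1 was at 0.10 ± 0.17 and the 2 clones that pair RpL28 with another gene at 0.14 and 0.17, and none of these passed.

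Among the 8 protein-coding genes on either side of RpS5b, 9 were measured, with means from -0.25 to 0.08. CG3817, 2 genes away, was the 1 that passed, at -0.25 ± 0.12 (limma, adjusted p = 0.0321), where 5.8% of all genes passed, and RpL10Aa, 4 genes away on the other side, was at 0.01. Around RpLP0-like 13 were measured, 0 passed in limma and 2 had an unadjusted p under 0.05, against 19.6% of all genes. High correlations can arise without any relation when 7590 genes are compared over only 7 arrays, so the following values are a description. The genes whose pattern over the 7 arrays was most like that of RpS5b, of 7590 compared, were Nplp1 (Pearson's r = 0.99), CG6983 (0.98) and CG5498 (0.97), with means of 0.29, 0.21 and 0.02, and within the ribosomal protein genes it was RpL41 (0.78).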
